A study of Mus musculus with 2 samples.

Results

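The report describes DNA methylation at 4 genes, Tnfaip2, Trim2, Fstl4 and Dyx1c1, of the 17606 protein-coding genes with a covered position. Each gene was taken with 2000 bp on either side, on the mouse genome build NCBIM37 (mm9). The genes were selected on the methylation percentages of wt and βerko MEFs at positions that the authors listed as differentially methylated, so the listed differences are the reason for the choice and are given as a description. Together they hold 302 of the 826937 cytosines covered in both libraries and 7 of the 8071 listed positions.

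The data came from reduced representation bisulfite sequencing (RRBS), in which DNA is cut with MspI at CCGG and a cytosine that survives bisulfite treatment is read as methylated. There was 1 library of wildtype (wt) mouse embryonic fibroblasts (MEFs) and 1 library of MEFs with the genotype ESR2 -/- (βerko, shown as ko in the plots), both from C57BL/6 mice. Each library pooled 3 batches of genomic DNA. There were therefore no replicates, every difference is one between these 2 libraries, and no test was made. The number of embryos behind each MEF line is not given in the sources used here, and methylation that differs between lines cannot be told apart from methylation that differs with the genotype.

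Methylation of cytosine in CpG is copied to the daughter strand by the maintenance methyltransferase, and in mammals most CpGs outside CpG-rich promoters carry it. Methylated promoters are usually silent, while methylation within transcribed bodies is common at active genes. Oestrogen receptor β (ERβ), encoded by Esr2, is a ligand-activated transcription factor. Tnfaip2 is induced by tumour necrosis factor and resembles a subunit of the exocyst, Trim2 encodes a RING-type ubiquitin ligase, Fstl4 encodes a protein with a follistatin-like domain, and Dyx1c1 takes part in the assembly of axonemal dyneins and is a candidate gene for dyslexia.

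Over all covered positions wt averaged 40.7 % methylation and βerko 38.8 %. At Esr2 itself, 1 listed position overlapped the gene, and its methylation gives no information on the disruption of the gene. Read numbers were available at listed positions, with a median of 31 reads in wt and 29 in βerko at the hypermethylated ones and of 20 and 46 reads at the hypomethylated ones. The depth of the other positions is unknown, so they carry no interval.

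The sequences around the 7 listed positions follow, on the + strand of NCBIM37 from 5′ to 3′. They are shown because they place each listed CpG among its measured neighbours. Capitals mark the CpGs that were covered in both libraries on either strand, and windows that touch an untranslated region were kept to 30 bases.

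Tnfaip2, chr12:112680760-112680789, listed CpG 2 of 5: tcgcCGggcCGaggCGtcCGccagCGgatt

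Trim2, chr3:84074271-84074510, listed CpG 3 of 4: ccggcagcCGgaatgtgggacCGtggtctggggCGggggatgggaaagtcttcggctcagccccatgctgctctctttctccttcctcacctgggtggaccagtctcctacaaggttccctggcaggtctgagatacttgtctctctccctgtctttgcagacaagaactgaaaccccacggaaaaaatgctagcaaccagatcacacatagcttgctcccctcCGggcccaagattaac

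Fstl4 upstream of the gene, chr11:52578015-52578080, listed CpG 5 of 8: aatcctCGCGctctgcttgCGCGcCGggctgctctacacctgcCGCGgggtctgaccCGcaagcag

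Fstl4 first exon, chr11:52578241-52578270, listed CpG 2 of 4: CGccaggggaccagcCGacagcCGgagaCG

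Fstl4 intron, lower in βerko, chr11:52928250-52928297, listed CpG 2 of 2: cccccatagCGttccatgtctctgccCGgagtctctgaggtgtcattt

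Fstl4 intron, higher in βerko, chr11:52933850-52933899, the only covered CpG: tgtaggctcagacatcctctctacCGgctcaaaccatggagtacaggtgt

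Dyx1c1 first exon, chr9:72806682-72806804, listed CpG 4 of 4: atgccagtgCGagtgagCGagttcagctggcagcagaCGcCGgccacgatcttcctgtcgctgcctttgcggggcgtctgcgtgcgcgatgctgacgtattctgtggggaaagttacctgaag

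Of the 7 listed positions, 5 were hypermethylated, meaning below 20 % in wt and above 80 % in βerko MEFs, and 2 were hypomethylated, the opposite. Over all covered positions, 0.249 % were past these thresholds upwards and 0.728 % downwards, together 0.976 %. These shares are the background of the rule itself, and nothing is read from them about the 4 genes. Tnfaip2, Trim2 and Dyx1c1 held a single listed position each. Fstl4 held 4, in both directions, so the description as a gene with a single changed CpG does not hold for it. No other position in the 4 genes was past both thresholds.

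At Tnfaip2 the listed cytosine, position 112680769 on the + strand of chromosome 12, lay in the 5′ untranslated part of the first exon, 89 bp downstream of the gene start. It was methylated in 0 of 14 reads in wt, 0 % with an exact 95 % interval up to 23.2 %, and in 7 of 8 reads in βerko MEFs, 87.5 % with an interval from 47.3 to 99.7 %. The PCR reads carry no molecular identifiers and are not independent, so all intervals cover counting error only.

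At Trim2 the listed cytosine, position 84074304 on the + strand of chromosome 3, lay in an intron, 409 bp downstream of an internal transcript start. It was methylated in 1 of 9 reads in wt, 11.1 % (0.281 to 48.2 %), and in 5 of 5 reads in βerko MEFs, 100 % (47.8 to 100 %). Trim2 was the only one of the 7 listed positions at which the intervals of the libraries overlapped. No more than 2.09 % of the listed hypermethylated positions had fewer reads in βerko MEFs.

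At Fstl4 the upstream cytosine, position 52578040 on the − strand of chromosome 11, lay 96 bp before the gene start. It was methylated in 1 of 16 reads in wt, 6.25 % (0.158 to 30.2 %), and in 7 of 7 reads in βerko, 100 % (59.0 to 100 %). The cytosine in the first exon, position 52578257 on the − strand, had 0 of 4 methylated reads in wt, with an interval up to 60.2 %, and 14 of 14 in βerko (76.8 to 100 %). With 4 reads in wt it did not meet the criterion of more than 4 reads that the other 6 positions met.

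The 2 positions deep in Fstl4 were read more often. The intronic cytosine at position 52928277 on the − strand lay 350118 bp from the start. It was methylated in 36 of 38 reads in wt, 94.7 % (82.3 to 99.4 %), and in 7 of 39 reads in βerko MEFs, 17.9 % (7.54 to 33.5 %). The cytosine at position 52933874 on the + strand, 355715 bp from the start, was methylated in 2 of 64 reads in wt, 3.12 % (0.381 to 10.8 %), and in 52 of 54 in βerko, 96.3 % (87.3 to 99.5 %). These positions of the same gene, 5597 bp apart, thus lay at opposite extremes in both libraries.

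At Dyx1c1 the listed cytosine, position 72806723 on the − strand of chromosome 9, lay in the coding part of the first exon, 131 bp downstream of the start. It was methylated in 31 of 36 reads in wt, 86.1 % (70.5 to 95.3 %), and in 1 of 20 reads in βerko MEFs, 5 % (0.127 to 24.9 %). It was the one listed position at a coding exon.

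**Figure D1:**
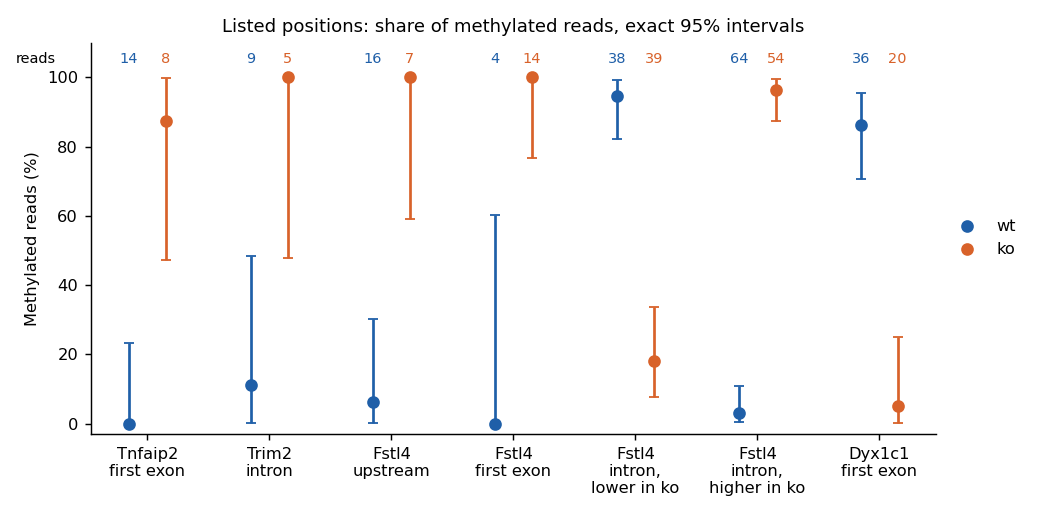
Methylated reads (%) at the 7 listed positions in wt (blue) and βerko (ko, orange) MEFs, with exact 95 % intervals as bars and the number of reads above each point. The intervals were narrowest at the position in Fstl4 read 64 and 54 times and widest where 4 to 9 reads were available.

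The values nearest to the thresholds were as follows. Among the listed positions, those at Dyx1c1 (86.1 % in wt) and in the intron of Fstl4 (17.9 % in βerko) came closest to a threshold on the side named. Just outside lay the Trim2 cytosine at 84074279, at 11.1 % in wt and exactly 80 % in βerko MEFs, and the Fstl4 cytosine at 52871772, at 21.4 % in wt and 84.2 % in βerko. In the other direction, the cytosine at 53002624, beyond the end of Fstl4, stood at 88 % in wt and 21.6 % in βerko.

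The next question was whether the cytosines around a listed position differed in the same way. Neighbours were the other covered cytosines within 100 bp on either strand. Those close by on the same strand can lie in the same reads, so their values are not independent of the listed one. Of all listed hypermethylated positions 29.7 % had no such neighbour, and for the rest the median of the mean neighbour difference was 17.9 percentage points. Of the hypomethylated ones 7.78 % had none, and the median was -48.8 percentage points. All differences are given as βerko minus wt.

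At Tnfaip2 the neighbours did not share the difference of the listed cytosine. Its 6 neighbours averaged 36.0 % in wt and 33.3 % in βerko MEFs, a difference of -2.66 percentage points, which was 11.5 when neighbours within 500 bp were taken. The cytosine 5 bp before it, at 112680764, stood at 28.6 % in wt and 62.5 % in βerko, whereas the one 5 bp after it, at 112680774, stood at 35.7 % and 12.5 %. The neighbours differed from -28.6 to 33.9 percentage points, with 1 higher and 2 lower in βerko by at least 20. Of the hypermethylated positions with neighbours, 16.1 % had a lower neighbour difference.

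At Trim2 both neighbours were higher in βerko MEFs. They averaged 16.7 % in wt and 60 % in βerko, a difference of 43.3 percentage points. Both lie close to the listed cytosine on its strand, with percentages that 9 and 5 reads can give, its own read numbers. They may come from the same reads, so their agreement with it is not independent. The cytosine at 84074292 stood at 22.2 % and 40 %, and the one at 84074279 at the values given above. Of the hypermethylated positions with neighbours, 74.2 % had a lower neighbour difference.

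At the upstream position of Fstl4 the 8 neighbours averaged 16.5 % in wt and 30.0 % in βerko MEFs, a difference of 13.5 percentage points. The difference was 1.10 within 500 bp and -0.0895 within 1000 bp. Both wider windows take in the listed first-exon cytosine of Fstl4, at 0 % in wt and 100 % in βerko. The cytosine of the same CpG on the other strand, at 52578039, was already at 71.4 % in wt and stood at 95.7 % in βerko. The strands of this CpG therefore differed in wt by 65.2 percentage points. Over the 70667 CpGs covered on both strands, 2.02 % had strands more than 50 percentage points apart in wt. The cytosine at 52578058, 18 bp above, stood at 7.14 % in wt and 65.2 % in βerko.

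At the first-exon position of Fstl4 the 17 neighbours were nearly unmethylated in both libraries, at 2.28 % in wt and 3.29 % in βerko. None of them was higher in βerko by 20 percentage points, and 1, at 52578264, was lower by as much, at 20 % in wt and 0 % in βerko. The cytosines on either side, at 52578242 and 52578263, stood at 0 % in wt and at 0 % and 12.5 % in βerko MEFs. This listed position, with 4 reads in wt, was thus alone among its covered neighbours in being higher in βerko by 20 percentage points.

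At the hypomethylated position of Fstl4 the only neighbour, 17 bp away at 52928260 on the same strand, stood at 68.4 % in wt and 0 % in βerko MEFs. These are percentages that 38 and 39 reads can give, the read numbers of the listed cytosine. Both may come from the same reads, so their agreement is not independent. A cytosine of the same covered block, at 52928083 on the + strand, differed the other way, from 50 % in wt to 82.1 % in βerko, and with it the mean neighbour difference was -18.1 percentage points. The other intronic position had no covered cytosine within 100 bp. Its nearest covered cytosine upstream was the hypomethylated position 5597 bp away, and the nearest downstream, 11481 bp away at 52945355, stood at 96.8 % in wt and 98.5 % in βerko.

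At Dyx1c1 the 3 neighbours averaged 92.5 % in wt and 71.2 % in βerko MEFs, a difference of -21.2 percentage points. The one 3 bp before the listed cytosine, at 72806720, fell from 91.7 % in wt to 40 % in βerko. The one at 72806692 stood at 85.7 % and 73.7 %, and the one at 72806700 at 100 % in both. The largest of these differences was at the cytosine nearest to the listed one. All 3 lie on the strand of the listed cytosine and may come from the same reads, so their agreement with it is not independent.

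**Figure D2:**
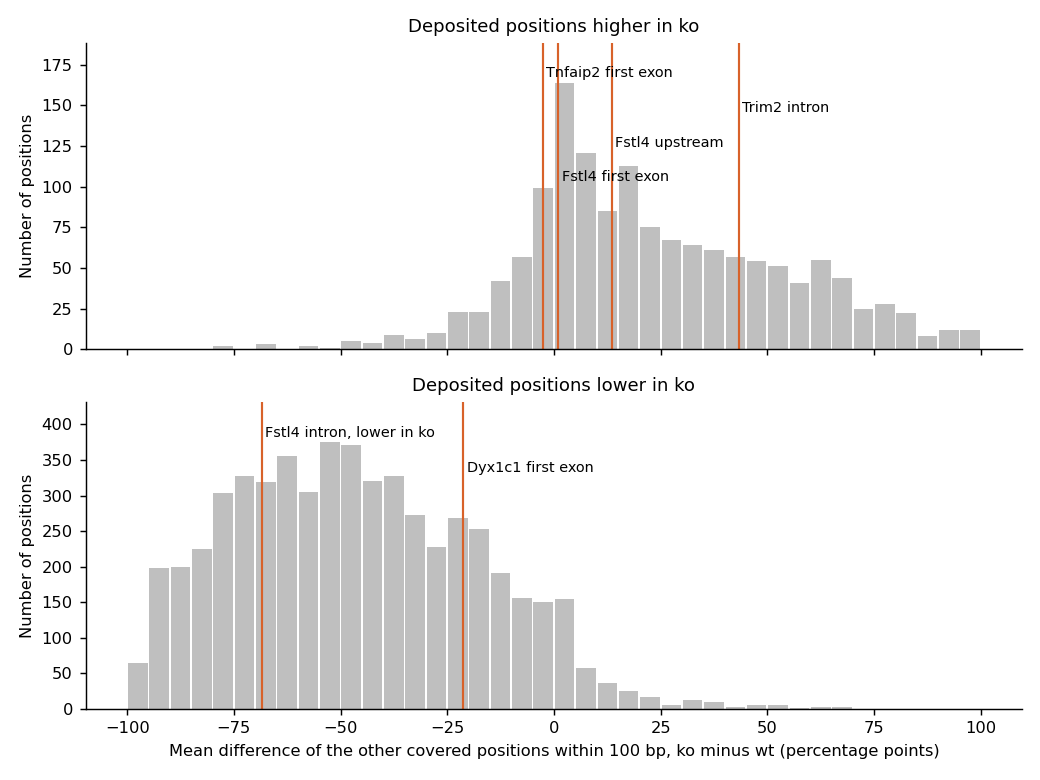
Number of listed positions (vertical axis) by the mean difference of the other covered cytosines within 100 bp, βerko (ko) minus wt in percentage points, for positions higher in βerko (upper panel) and lower in βerko (lower panel). Orange lines mark the listed positions of the 4 genes: Trim2 lies at 43.3 and Tnfaip2 at -2.66 in the upper panel, the intronic Fstl4 position at -68.4 and Dyx1c1 at -21.2 in the lower one.

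The listed positions also differed in sequence setting. Of the 7, 4 lay within an MspI site (CCGG), namely those of Dyx1c1 and 3 of Fstl4. The same held for 39.1 % of all covered cytosines, 70.7 % of the listed hypermethylated and 44.0 % of the hypomethylated ones. The first-exon position of Fstl4 had 24 CpGs within 100 bp, the Dyx1c1 position 19, the Tnfaip2 and the upstream Fstl4 positions 16 each and the Trim2 position 8. The intronic positions of Fstl4 had 3 and 5. The median over all covered cytosines was 13, over the hypermethylated positions 4 and over the hypomethylated ones 13.

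Short words bound by transcription factors were searched on both strands within 100 bp. The full palindrome of the oestrogen response element and the AP-2 word GCCNNNGGC were at none of the 7 positions, and 0.0206 % and 22.3 % of all covered CpGs had them. The E-box CAGCTG stood at Dyx1c1, starting 17 bp before the listed CpG, and 12.0 % of all covered CpGs had it. A word of the RFX factors, GTTGCTA or GTTGCCA, stood 98 bp before the same CpG, and 2.92 % of all covered CpGs had one. A match says only that these letters are present, and a missing word does not exclude other forms of a motif. The paper's own motif search found AP2 and Myog motifs shared by the hypermethylated loci that re-introduced ERβ restored, which include Tnfaip2. It also reported a motif of the RFX factor Rfx1 at the hypomethylated loci it examined, which include Dyx1c1.

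The profile of each gene was then compared with its listed positions. A promoter was taken as 500 bp before to 100 bp after any annotated transcript start. Tnfaip2 (ENSMUSG00000021281.8, chr12:112680680-112693229, + strand) had 53 covered cytosines, averaging 61.5 % in wt and 66.0 % in βerko MEFs, while the median difference was -0.77 percentage points. Of these, 14 were higher and 8 lower in βerko by at least 20 percentage points, together 41.5 %. Over all covered cytosines 6.81 % were higher and 10.4 % lower by as much, together 17.2 %. Its promoter windows averaged 67.4 % and 69.9 % over 25 cytosines, and the rest of the body 58.1 % and 63.3 % over 27. Without the listed cytosine the promoter windows averaged 70.2 % in wt and 69.2 % in βerko. The promoter mean pools unlike windows. Near the gene start, the window of the start 112680873 averaged 32.1 % in wt and 40.7 % in βerko over 8 cytosines. The listed one, at 0 % in wt and 87.5 % in βerko, is included, and the median difference was -0.58 percentage points. At the internal start 112684295 the averages were 85.7 % and 84.5 % over 11.

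The start of Tnfaip2 was partly methylated in both libraries. The first covered block (cytosines with gaps of at most 200 bp, a definition made after values had been seen), chr12:112680764-112681370, averaged 40.4 % in wt and 51.4 % in βerko over 27 cytosines. Of these, 18 in wt and 22 in βerko lay between 20 and 80 %. The mean difference was 10.9 percentage points with the listed cytosine, for which the gene was chosen, and 8.0 without it. Of the 27, 9 were higher, the listed one among them, and 4 lower in βerko by at least 20 percentage points. At 112681014 and 112681016, 2 bp apart, wt stood at 5.36 % for both and βerko at 55.2 % and 56.1 %.

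Further into Tnfaip2 the differences went both ways. The cytosine at 112682076 stood at 33.3 % in wt and 97.1 % in βerko, and the one at 112684097 at 37.5 % and 100 %. The one at 112682032 stood at 100 % in wt and 43.1 % in βerko MEFs.

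Dyx1c1 (ENSMUSG00000092192.1, chr9:72806592-72820871, + strand) had 11 covered cytosines, all within the gene, averaging 86.4 % in wt and 75.3 % in βerko MEFs. The difference, -11.0 percentage points, was -4.04 without the listed cytosine, and the median difference was 0. Of the 11, 2 were higher and 3 lower in βerko by at least 20 percentage points. The first 4 cytosines, a block at the start, averaged 90.9 % in wt and 54.7 % in βerko. The difference was -36.2 percentage points with the listed cytosine, for which the gene was chosen, and -21.2 without it. The others lie on its strand and may share its reads, so the second value is not independent of the choice. Of all blocks with at least 3 cytosines, 7.41 % were lower by at least 20 percentage points, and nothing is read from this share about Dyx1c1.

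Farther along Dyx1c1, the cytosine at 72807888 stood at 98.6 % in wt and 57.9 % in βerko, while the one at 72808667 stood at 65.2 % and 95.5 %. A block of 3 cytosines, chr9:72809914-72810021, averaged 91.2 % in wt and 100 % in βerko. Over the gene 5 cytosines were higher, 4 lower and 2 equal in βerko. The annotation holds a second gene of the same name, ENSMUSG00000089865.2, that extends to 72864126. It starts at 72806659, nearer to the listed position, which it also holds. The second gene had 44 covered cytosines, averaging 36.3 % in wt and 33.2 % in βerko, the listed one included.

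**Figure D3:**
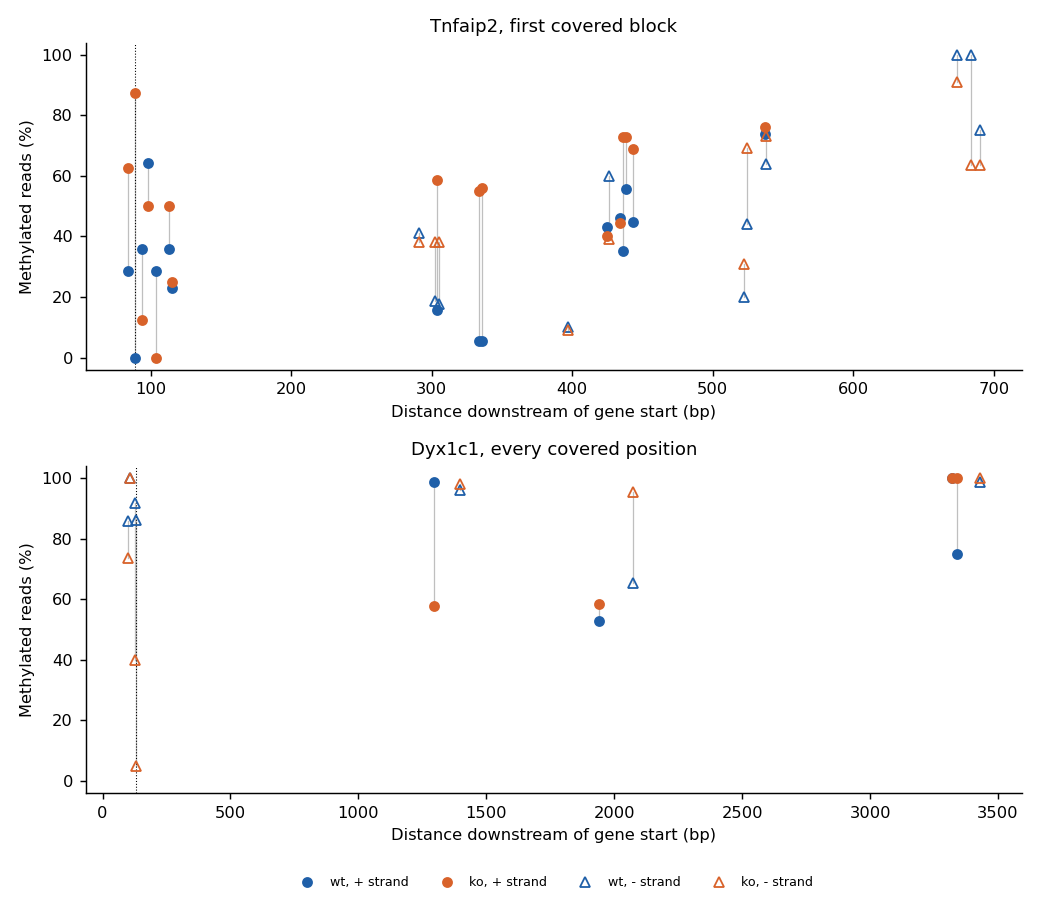
Methylated reads (%) against the distance from the gene start (bp) in wt (blue) and βerko (ko, orange) MEFs, for the first block of Tnfaip2 (upper panel) and every covered cytosine of Dyx1c1 (lower panel). Grey lines join the libraries, triangles are the − strand and dotted lines mark listed positions, which reach 87.5 % in βerko at Tnfaip2 and fall to 5 % at Dyx1c1.

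Trim2 (ENSMUSG00000027993.10, chr3:83964361-84109368, − strand) had 103 covered cytosines, averaging 50.6 % in wt and 52.3 % in βerko MEFs. Of these, 13 were higher and 8 lower in βerko by at least 20 percentage points, together 20.4 %. The promoter windows averaged 26.2 % and 22.1 % over 49 cytosines and the rest of the body 73.0 % and 79.1 % over 52. Of its 15 transcript starts 3 had a covered window, and the start of the gene was not among them. The mean pools unlike windows. They averaged 93.6 % in wt and 81.1 % in βerko at the internal start 83994445, 1.38 % and 0.63 % at 84063291, and 2.36 % and 0.93 % at 84063734. The promoter difference of -4.14 percentage points was 1.04 with windows of 1000 bp before to 500 bp after a start.

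The start regions of Trim2 were of different kinds. The CpG-rich block chr3:84063170-84063834 averaged 2.14 % in wt and 0.74 % in βerko over 38 cytosines, of which the highest stood at 19.2 % in wt. None of the 38 differed by 20 percentage points. The block with the listed cytosine, chr3:84074279-84074594, averaged 14.8 % in wt and 54.2 % in βerko over 7 cytosines. All 7 were higher in βerko, by 5.40 to 88.9 percentage points, and 5 of them by at least 20. The mean difference was 39.4 percentage points with the listed cytosine, for which the gene was chosen, and 31.1 over the other 6. Of all blocks, 5.18 % were higher by at least 20 percentage points on average, and nothing is read from this share about a block picked after its values had been seen.

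The difference in this block was seen on both strands. The CpG at 84074495 stood at 14.8 % in wt and 66.7 % in βerko on the + strand, and at 29.4 % and 50 % on the − strand. Elsewhere in the gene the largest differences included 84033168, at 91.5 % in wt and 27.3 % in βerko, and 84051863, at 10.7 % and 68.4 %. The block chr3:83994529-83994749 averaged 93.6 % in wt and 81.1 % in βerko over 13 cytosines.

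**Figure D4:**
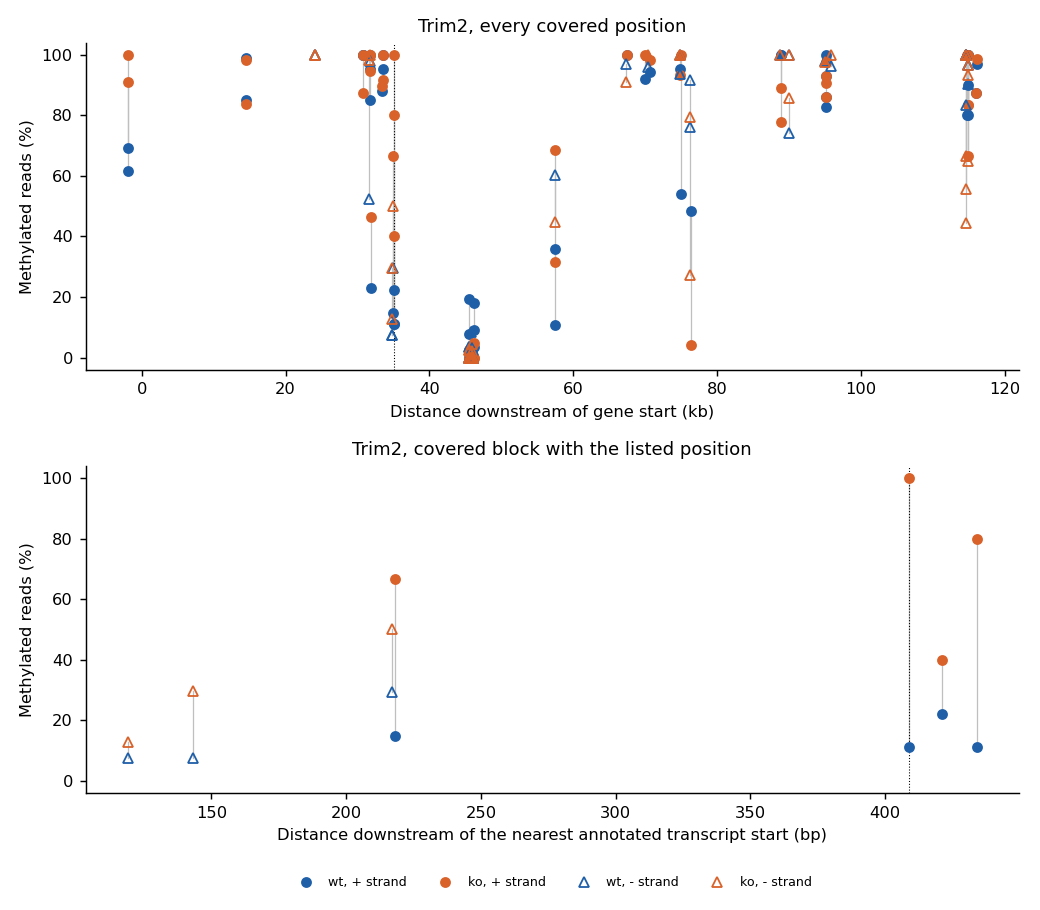
Methylated reads (%) at Trim2 in wt (blue) and βerko (ko, orange) MEFs against the distance from the gene start in kb (upper panel) and, for the block with the listed position, from the nearest transcript start in bp (lower panel). All 7 cytosines of that block are higher in βerko; the CpG-rich block in the middle of the upper panel lies below 20 % in both.

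Fstl4 (ENSMUSG00000036264.8, chr11:52578136-53002040, + strand) had 135 covered cytosines, averaging 48.9 % in wt and 49.7 % in βerko MEFs. Of these, 17 were higher and 17 lower in βerko by at least 20 percentage points, together 25.2 %. The promoter windows averaged 9.41 % in wt and 28.0 % in βerko over 17 cytosines, a difference of 18.6 percentage points. It was 8.16 without the listed positions, and 3.55 with windows of 1000 bp before to 500 bp after a start. The rest of the body averaged 53.7 % and 52.2 % over 113 cytosines.

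The start of Fstl4 was for the most part unmethylated in both libraries. The block chr11:52577890-52578796 averaged 9.22 % in wt and 10.1 % in βerko over 57 cytosines, of which 44 lay below 20 % in both. Both listed cytosines, for which the gene was chosen, are in these means, at 6.25 % and 0 % in wt and 100 % in βerko. The small difference between the means is therefore not free of the choice. In that block 5 were higher and 6 lower in βerko by at least 20 percentage points. The cytosines higher in βerko included both listed ones and the one at 52578058.

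In the body of Fstl4, 34 of 113 cytosines lay above 80 % in both libraries. The block of 3 cytosines with the hypomethylated position, chr11:52928083-52928277, averaged 71.1 % in wt and 33.4 % in βerko. The mean difference was -37.7 percentage points with the listed cytosine, for which the gene was chosen, and -18.1 without it. The second value still holds 52928260, which may share reads with the listed cytosine. The largest differences among the cytosines not listed were at 52946183, at 0 % in wt and 75 % in βerko, at 52928260, given above, and at 53002624, beyond the end of the gene, at 88 % in wt and 21.6 % in βerko. The antisense gene Gm11186 lies within Fstl4 and its 4 covered cytosines, which hold the hypomethylated position, averaged 78.3 % in wt and 49.5 % in βerko. Apart from the hypomethylated position, they differed both ways, by -2.04, 32.1 and -68.4 percentage points.

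**Figure D5:**
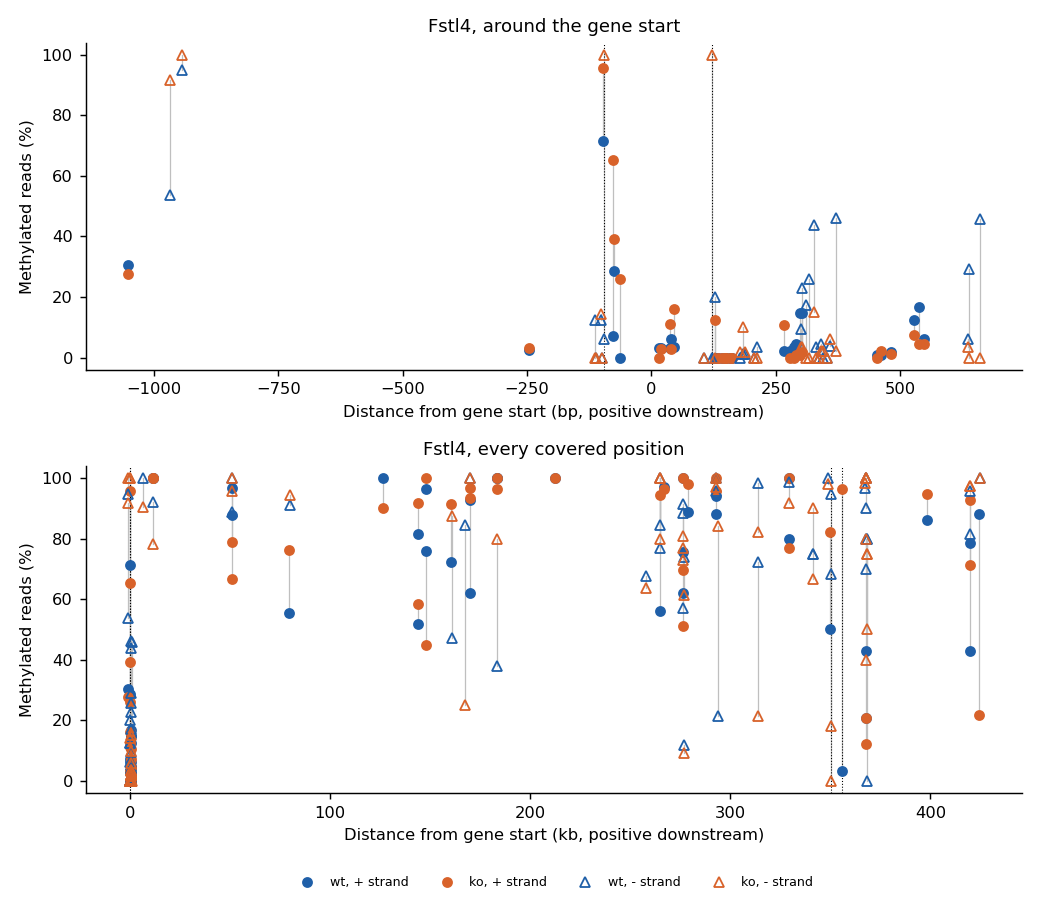
Methylated reads (%) at Fstl4 in wt (blue) and βerko (ko, orange) MEFs against the distance from the gene start, in bp around the start (upper panel) and in kb over the whole gene (lower panel). Grey lines join the libraries and dotted lines mark the 4 listed positions. The block at the start averages 9.22 % in wt and 10.1 % in βerko, its listed positions included.

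Among the 14006 genes with at least 10 covered cytosines, the median gene differed by -0.488 percentage points in the mean, and the central 90 % of genes lay between -15.2 and 5.16. The means of the 4 genes include the listed positions for which they were chosen, so their place among all genes is partly fixed by the choice. Tnfaip2 lay at 4.55 with its listed position and 2.95 without it, Trim2 at 1.66 and 0.81, Fstl4 at 0.829 and -0.75, and Dyx1c1 at -11.0 and -4.04. The share of cytosines that differed by at least 20 percentage points was 41.5 % in Tnfaip2 and 45.5 % in Dyx1c1, against a median gene with 7.69 %, and 20.4 % and 25.2 % in Trim2 and Fstl4, the listed positions included. Of these genes, 1485 (10.6 %) held exactly 1 listed position.

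Other genes with intronic listed positions are set beside them. Sorcs2 held 1 listed position in 203 covered cytosines and averaged 55.1 % in wt and 55.7 % in βerko. Nav2 held 3 in 208, 2 lower and 1 higher in βerko, and averaged 67.9 % and 62.9 %. Sfmbt2 held 1 of each direction in 47 and averaged 48.1 % in wt and 34.2 % in βerko.

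Related genes were described by their promoter means, with at least 3 covered cytosines. Of 40 names in 4 lists, 34 were found and 25 measured. None was higher and 2 were lower in βerko by at least 20 percentage points, while of all 11763 promoters 0.587 % were higher and 5.01 % lower. Igfbpl1, of the follistatin and SPARC list, averaged 49.5 % in wt and 13.6 % in βerko over 7 cytosines. D130043K22Rik, a dyslexia candidate, averaged 53.7 % and 25.1 % over 6. The median difference was -0.26 percentage points over 5 promoters of the TNF-induced and exocyst-like list, 3.56 over 2 of the TRIM-NHL list, -1.15 over 10 of the follistatin and SPARC list and -1.19 over 8 of the dynein assembly and dyslexia list, beside -0.161 over all promoters.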

How the data were processed

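RRBS was made by the authors from MspI-digested DNA, with fragments of 160 to 340 bp and 19 PCR cycles. The mapping software was the Genomatix Mining Station (version not given in the sources used here) on the build mm9, and the submitters' processing notes name CASAVA 1.4. What the authors deposited is the percent of methylated reads at every cytosine that both libraries covered, with no read number, and, at listed positions, the counts of reads per library.

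From these files, positions were matched to NCBIM37, where all 826925 nuclear positions were CpG cytosines and 12 mitochondrial positions were not compared. Genes, transcripts and exons were those of GENCODE M1. Intervals are exact (Clopper-Pearson). A gene or promoter mean is the unweighted mean over its covered cytosines. The gene, neighbour and block means were tested on simulated data, in which 200 of 200 regions were recovered. The simulated regions had a single strand and the same shift at every position, so this checks the arithmetic only. Python 3.11.15, NumPy 2.4.6, pandas 2.3.3, SciPy 1.17.1 and matplotlib 3.10.9 were used.

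The 4 genes, the lists and the settings were chosen with earlier results of these data known. Named were the 4 genes, their listed positions and nearest covered cytosines, up to 3 other cytosines per gene with the largest difference, overlapping genes, list members past 20 percentage points and 3 comparison genes. Cytosines of Tnfaip2, Fstl4 and Trim2 within blocks, and the blocks, were picked after their values had been seen. Columns with the authors' annotation were used only for gene names. Alternatives were tried for read minimum, thresholds, neighbour distance, promoter window, mean or median and the size of a difference.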

Additional observations from a re-analysis of the deposited data

How the results depend on the processing

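Of 76 alternative values for 21 results, 47 stayed close to the reported ones and 29 moved. The sign changed for the promoters of Trim2, the median over Tnfaip2 and the neighbours of the Tnfaip2 and the upstream Fstl4 positions. It also changed, by under 5 percentage points, for the promoters of Tnfaip2 (-0.97) and the mean over Fstl4 (-0.75) without the listed positions, for Fstl4 without the added 2000 bp (-0.54), and for the neighbours of the first-exon Fstl4 position within 50 bp (-0.83) and 1000 bp (-0.92). No paired analysis was possible because each group has 1 library, and for the same reason no library could be left out. A value without a read count was taken as moved when it shifted by 5 percentage points or more, or a count when it shifted by over 1.5 times. Of the 6 listed positions with more than 4 reads, 3 had at least 10 reads in both libraries and 3 at least 20. Past thresholds of 10 and 90 % there were 3 positions in place of 7, and past 30 and 70 % there were 14. The median difference was -0.77 percentage points over Tnfaip2 and 0 over Dyx1c1, and without the listed position the mean over Dyx1c1 was -4.04. With promoters from 1000 or 2000 bp upstream to 500 bp downstream, the difference was 1.04 and 1.88 at Trim2, 3.55 and 3.43 at Fstl4, and -36.2 in both at Dyx1c1, and at Fstl4 it was 8.16 without the listed positions. With neighbours within 500 or 1000 bp, it was 11.5 and 8.0 at Tnfaip2, 31.1 in both at Trim2, and 1.10 and -0.0895 at the upstream Fstl4 position. At the start of Fstl4 these wider windows around each listed position take in the other listed one. At the hypomethylated Fstl4 position it was -18.1 within 200, 500 and 1000 bp, where the cytosine at 52928083 enters. The other intronic Fstl4 position had no neighbour within 100 bp and gives no value. With a difference of at least 10 percentage points, 38 cytosines of Tnfaip2, 59 of Fstl4 and 4 promoters of the lists counted as changed, and with at least 30, 12 of Tnfaip2, 13 of Trim2 and 1 promoter. Except where the construction shows it, the cause was not tested. Depth limits the listed positions of Tnfaip2, Trim2 and the start of Fstl4, with 4 to 16 reads, and is unknown elsewhere.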
